A study of Mus musculus with 12 samples.

Results

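Genes of the TGF-beta and BMP pathway were examined in the left atrium (LA) of mice in which Notch signaling had been switched on in cardiomyocytes. The set was defined by gene name, with earlier results of these data known. It takes in the TGF-beta, BMP, GDF and activin ligands, their receptors and the SMAD transcription factors. It also takes in extracellular antagonists, latent TGF-beta binding proteins and a few other genes that match by name. It holds 66 of the 54658 gene names in the table, and 50 of these exceeded 1 CPM, a count scaled to the library total, in at least 6 of the 12 libraries and were among the 13541 genes tested. The data are RNA-sequencing read counts per gene from 6 iNICD and 6 littermate control LA, each sequenced as its own library. iNICD mice carried *αMHC-rtTA*, which drives the reverse tetracycline transactivator in cardiomyocytes, together with the *tetO_NICD* transgene, from which the Notch1 intracellular domain is made once transactivator and doxycycline are both present. Controls carried *αMHC-rtTA* alone. All mice, on a mixed genetic background, received doxycycline chow for 3 weeks from 2 to 3 months of age with no washout, so that both groups shared the transactivator and the drug. The controls were 4 females and 2 males and the iNICD mice 3 females and 3 males. The transgene acts in cardiomyocytes, whereas the libraries were made from whole atrial tissue, in which fewer cells of a type and less RNA per cell cannot be told apart.

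Ligands of this family signal as dimers through paired type I and type II serine/threonine kinase receptors. TGF-beta and activin ligands lead mainly to phosphorylation of SMAD2 and SMAD3, BMP ligands to that of SMAD1, SMAD5 and SMAD9, and both branches share SMAD4. SMAD6 and SMAD7 inhibit the signal, and latent TGF-beta binding proteins hold TGF-beta in the matrix until it is released. In the heart the pathway is known for cushion and valve formation, for the identity of the atrioventricular canal, in which *Bmp2* has a central role, and for fibrosis.

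Library depth was 21432632 to 27182038 counts, and *Notch1*, whose count takes in reads of the transgene, had 2335 to 3311 counts in control and 71187 to 107667 in iNICD libraries. The labelled tissue was checked against marker genes. The summed level of *Nppa*, *Myl4*, *Myl7* and *Sln* was 34235 to 44024 normalized CPM in control and 9269 to 16601 in iNICD libraries, where normalization divides each count by the total over tested genes after TMM adjustment, while the ventricular genes *Myl2*, *Myl3* and *Irx4* together reached only 1.28 to 4.51. All 4 atrial markers were called lower in the iNICD LA, as was 1 of 5 general cardiomyocyte markers. No gene was called among 6 endothelial, 7 fibroblast, 6 leukocyte, 7 smooth muscle and 5 epicardial markers or the 1 tested gene each of the ventricular and adipocyte lists. The log2 fold change was below 0 for all 6 endothelial and all 5 epicardial markers, with medians of -0.14 and -0.30, and above 0 for all 6 leukocyte and 6 of 7 fibroblast markers, with medians of 0.14 and 0.16. Control replicate 5, a male, stood apart: 13.2% of all tested genes departed there by at least 2-fold from the other controls' mean, whereas each other library departed so from its own group for 1.62% to 3.41%. Of the 50 tested pathway genes, 1 to 9 differed by that much in each other library, the 9 being in control replicate 6. In control replicate 5 there were 18, 11 upward and 7 downward. The summed atrial, cardiomyocyte, endothelial and smooth muscle markers of control replicate 5 were the highest of the controls, at 44024, 71300, 1035 and 811 normalized CPM against at most 39258, 62513, 881 and 631 in the other 5. Its epicardial and adipocyte sums, 217 and 1.45, were the lowest of the controls, and its fibroblast and leukocyte sums, 3292 and 319, lay within the control ranges of 2789 to 4036 and 317 to 386. The part of cell composition in these differences and in those between the groups was not tested. The number of pathway genes called is given with and without control replicate 5. So are the fold changes of those among the 50 genes that moved most without it.

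In the iNICD LA, 2 of the 50 pathway genes differed from control beyond the threshold. By the quasi-likelihood test of edgeR, with p-values adjusted (Benjamini-Hochberg) over all 13541 tested genes and a threshold of 0.05, the ligand *Bmp2* was higher and the inhibitory SMAD *Smad7* was lower, and DESeq2, which called 7.82% of all genes, called *Acvr1*, a BMP type I receptor, lower as well. At an unadjusted p under 0.05 there were 7 pathway genes and 2358 of all genes. Across all tested genes 2.78% were higher, 1.34% were lower and 4.12% changed in either direction, so the pathway's share of 4% lay close to the background. The median log2 fold change of the 50 genes was -0.11, beside -0.01 over all genes. The log2 fold change was above 0 for 15 of the 50 and below 0 for 35, whereas 48.7% of all tested genes lay above 0. Without control replicate 5 this tilt was absent, with 25 genes above and 25 below 0 and a median of -0.0014, and 14 of the 50 genes changed sign. The called genes were *Bmp2* and *Smad7* with that library or without it, where 5.90% of all genes were called. Control and iNICD libraries did not overlap for 3 pathway genes, *Bmp2*, *Smad7* and *Acvr1*, compared with 3.83% of all tested genes.

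**Figure D1:**
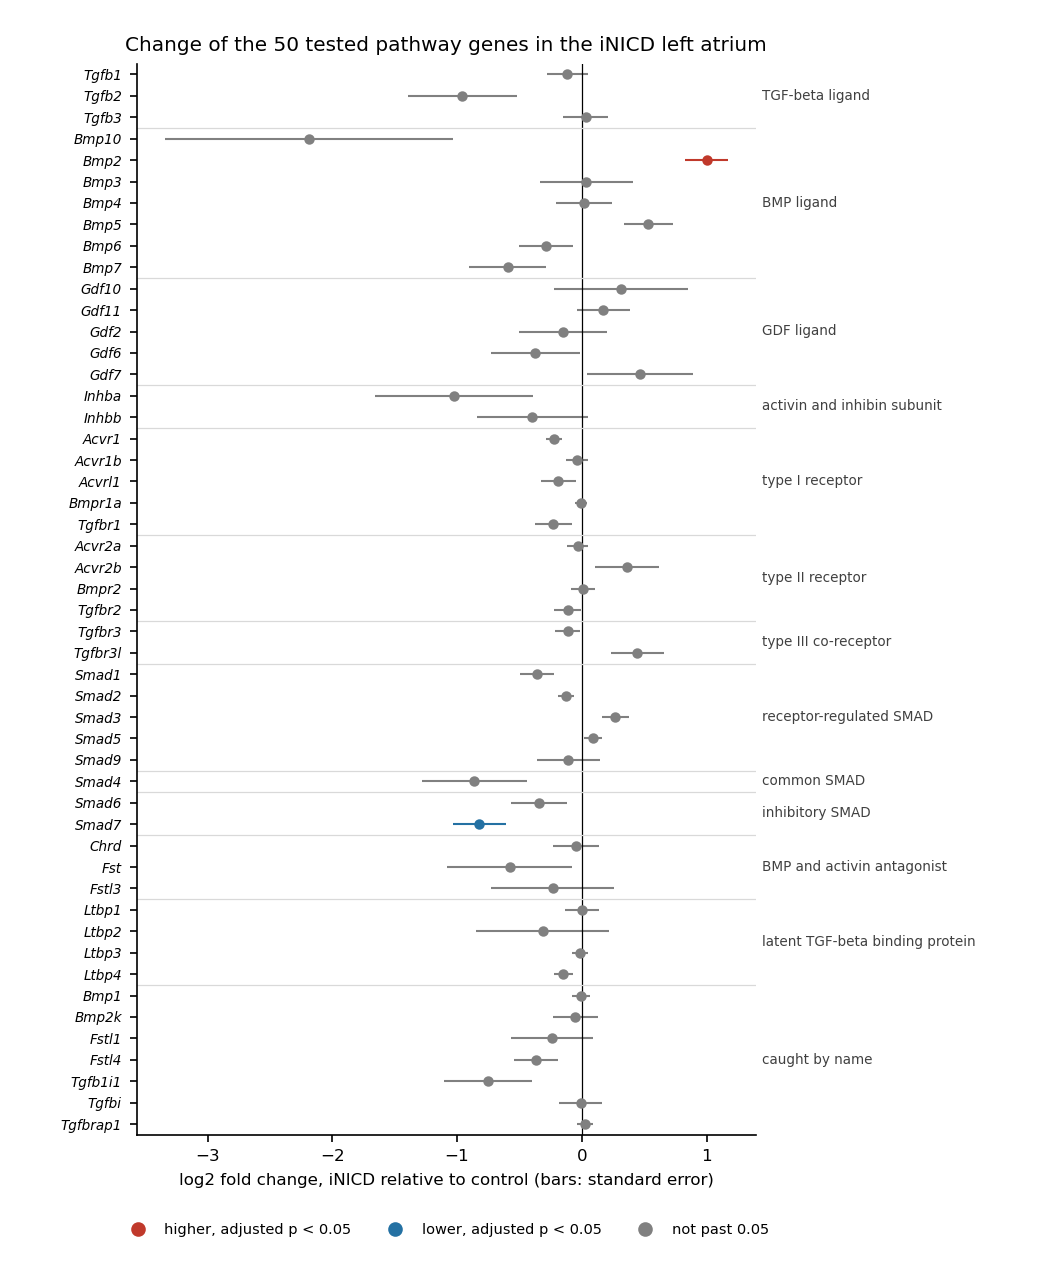
Log2 fold change of each of the 50 tested pathway genes, iNICD relative to control (x axis), with genes on the y axis grouped by role and bars showing the standard error. *Bmp2* at 1.00 (red) and *Smad7* at -0.82 (blue) passed the threshold, and *Bmp10* at -2.19 had the widest error of the set.

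Between genes, levels were compared per kb of gene length. By the mean over all 12 libraries the latent TGF-beta binding protein gene *Ltbp4* was the highest, with 147 normalized CPM per kb in control and 132 in iNICD libraries. *Fstl1*, a secreted follistatin-like glycoprotein, followed at 66.0 and 56.0. *Ltbp3* had 27.6 and 27.4 by its deposited length of 5190 bases, which is below its 9069 annotated exon bases. Among the ligands *Tgfb3* had the highest level per kb, at 26.6 in control and 27.2 in iNICD libraries, ahead of *Bmp6* at 15.4 and 12.6. *Tgfb2*, at 7.41 and 3.81, had 4.41 in controls when control replicate 5 was left out. The receptor with the highest level per kb was *Bmpr1a*, a BMP type I receptor, at 22.3 and 22.2. *Bmp2*, by contrast, was near the bottom of the range with 0.415 in control and 0.831 in iNICD libraries. The genes just inside the expression filter were *Bmp7* and *Bmp10*, each above 1 CPM in 7 libraries. Just outside was *Gdf15*, a stress-induced ligand of the family, which exceeded 1 CPM in 1 library and had 176 counts in all 12. The antagonists *Nog* and *Grem1* had 15 and 1 counts in the 12 libraries together, and other untested names were *Inhbc*, *Inhbe*, *Bmp8a*, *Bmp8b*, *Bmp15*, *Gdf1*, *Gdf3*, *Gdf5*, *Gdf9*, *Fstl5*, *Acvr1c* and *Bmpr1b*.

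**Figure D2:**
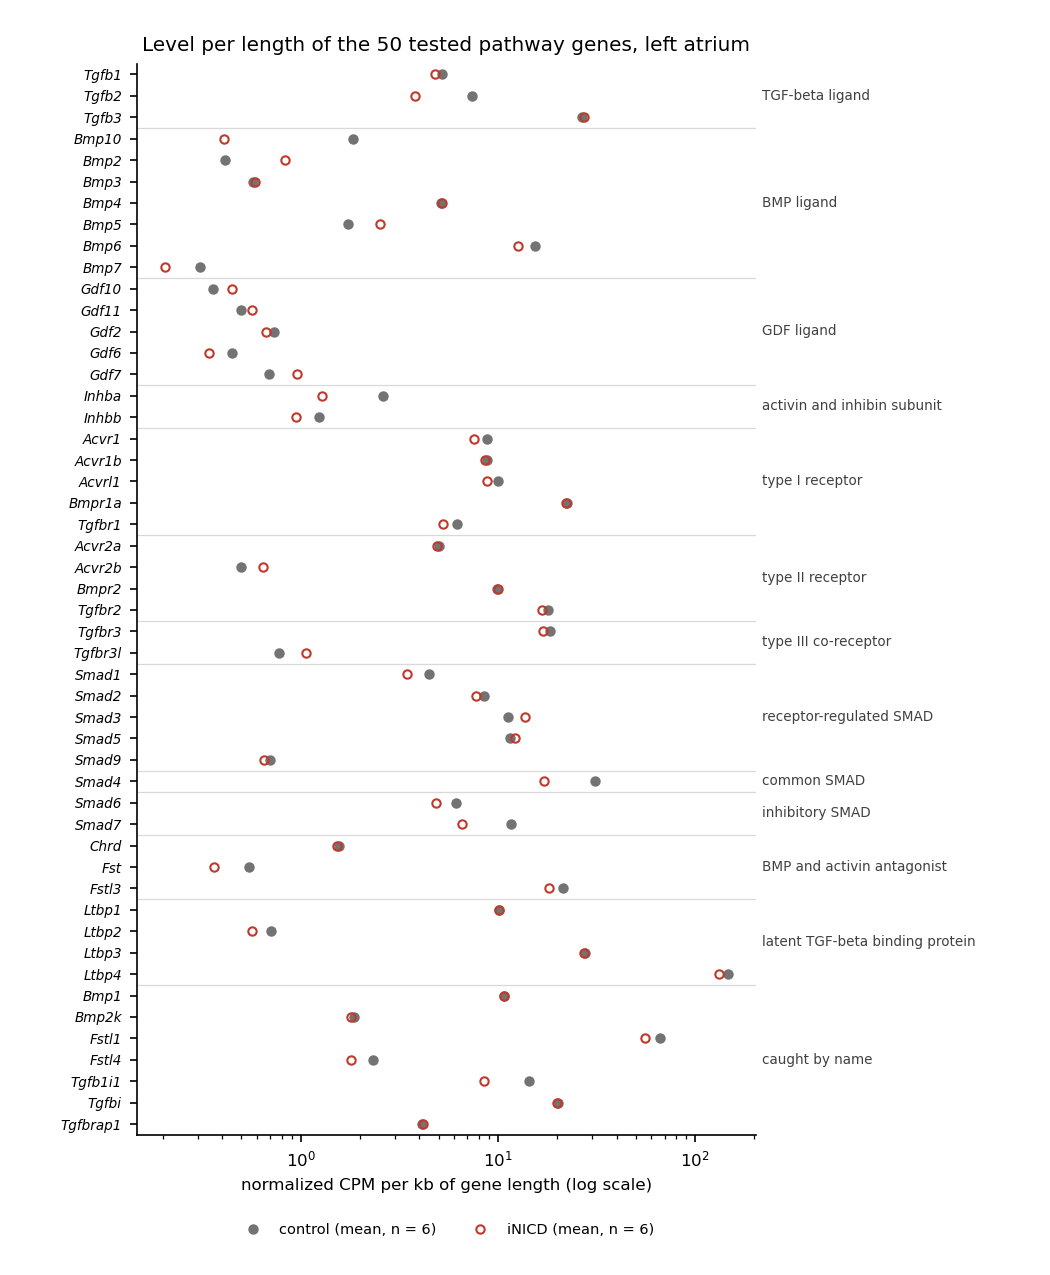
Mean normalized CPM per kb of gene length (x axis, log scale) of the 50 tested pathway genes, grouped by role, for control (filled grey) and iNICD LA (open red), n = 6 each. *Ltbp4* lay highest at 147 and 132, and *Bmp2* moved from 0.415 to 0.831.

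Of the 10 BMP ligand genes 7 were tested, and *Bmp2* was the one called with all 12 libraries. The gene is at 133552159 to 133562885 on the forward strand of chromosome 2 in GRCm38 (mm10). Its lowest, median and highest levels were 1.296, 1.496 and 1.64 normalized CPM in the control LA and 1.94, 2.98 and 3.98 in the iNICD LA. Every iNICD library thus lay above every control, including control replicate 5 at 1.64. The mean rose from 1.48 ± 0.117 to 2.95 ± 0.697 normalized CPM (SD over 6 libraries each), a log2 fold change of 1.00 ± 0.17 (SE, adjusted p = 0.00483 in edgeR). The reads behind these values were few, 28 to 38 counts per control and 44 to 109 per iNICD library. *Bmp2* was called in all 12 fits that each left out a library, with log2 fold changes from 0.90 to 1.09. Within females alone the log2 fold change was 1.02 (adjusted p = 0.0792 in edgeR) and within males alone 0.97 (adjusted p = 0.705 in edgeR), and neither passed.

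*Bmp10*, a ligand made mainly by the heart, had the lowest log2 fold change of all 50 genes and the widest spread. It lies on chromosome 6 from 87428994 to 87437677 on the forward strand. Its level had a minimum of 1.12, a median of 3.81 and a maximum of 31.6 normalized CPM in controls and a minimum of 0.0757, a median of 0.213 and a maximum of 10.1 in iNICD libraries. Both maxima were in the animals numbered 2, and the other libraries lay between 1.12 and 5.59 in controls and at or below 0.418 in iNICD mice. The counts were 27 to 856 in controls and 2 to 228 in iNICD libraries. With all 12 libraries the log2 fold change was -2.19 ± 1.15 (SE) and was not called (adjusted p = 0.353 in edgeR). It was -0.98 (adjusted p = 0.695 in edgeR) without control replicate 2 and -5.35 (adjusted p = 0.0103 in edgeR) without iNICD replicate 2, the only one of the 12 fits leaving out 1 library in which it was called. With both libraries numbered 2 left out, an alternative chosen after these values were seen, it was -4.15. *Bmp10* had passed the expression filter through the 6 controls and iNICD replicate 2, so that without the libraries numbered 2 only controls lay above 1 CPM, and nothing is read from the separation of the remaining libraries. A list of 6 right atrial and sinus node genes, chosen after *Bmp10* was seen, was summed. The sum was 64.5 normalized CPM in control replicate 2, within 42.3 to 88.8 over controls. In iNICD replicate 2 it was 95.4, within 88.0 to 133 over iNICD libraries. The part of right atrial tissue in the spread of *Bmp10* was not tested.

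Because NICD acts through the DNA-binding protein RBPJ, the promoter of *Bmp10* was searched for the RBPJ core TGGGAA and for 2 SMAD-binding motifs, GGCGCC and the SMAD box GTCT, on both strands. The RefSeq sequence covers 250 bases before to 50 after the transcription start on the forward strand, chr6:87428744-87429043 of GRCm38.p6, and is shown as that of the gene with the lowest log2 fold change of the set, with matches in capitals.
Bmp10: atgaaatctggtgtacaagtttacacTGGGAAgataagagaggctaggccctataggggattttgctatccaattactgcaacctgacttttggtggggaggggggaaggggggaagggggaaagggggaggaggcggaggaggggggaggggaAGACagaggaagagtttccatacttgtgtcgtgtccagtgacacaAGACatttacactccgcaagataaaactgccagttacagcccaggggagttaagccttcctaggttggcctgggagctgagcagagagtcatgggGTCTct
It held 1 RBPJ core and 3 SMAD boxes. Such matches are common, as 25.6% of all 32851 RefSeq promoters of this length held the RBPJ core, 88.0% a SMAD box and 11.9% GGCGCC. Over the pathway genes, 44 promoters were found for 37 of the 50 tested genes, *Bmp2* and *Smad7* not among them, and 27.3%, 86.4% and 31.8% of them held these motifs.

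**Figure D3:**
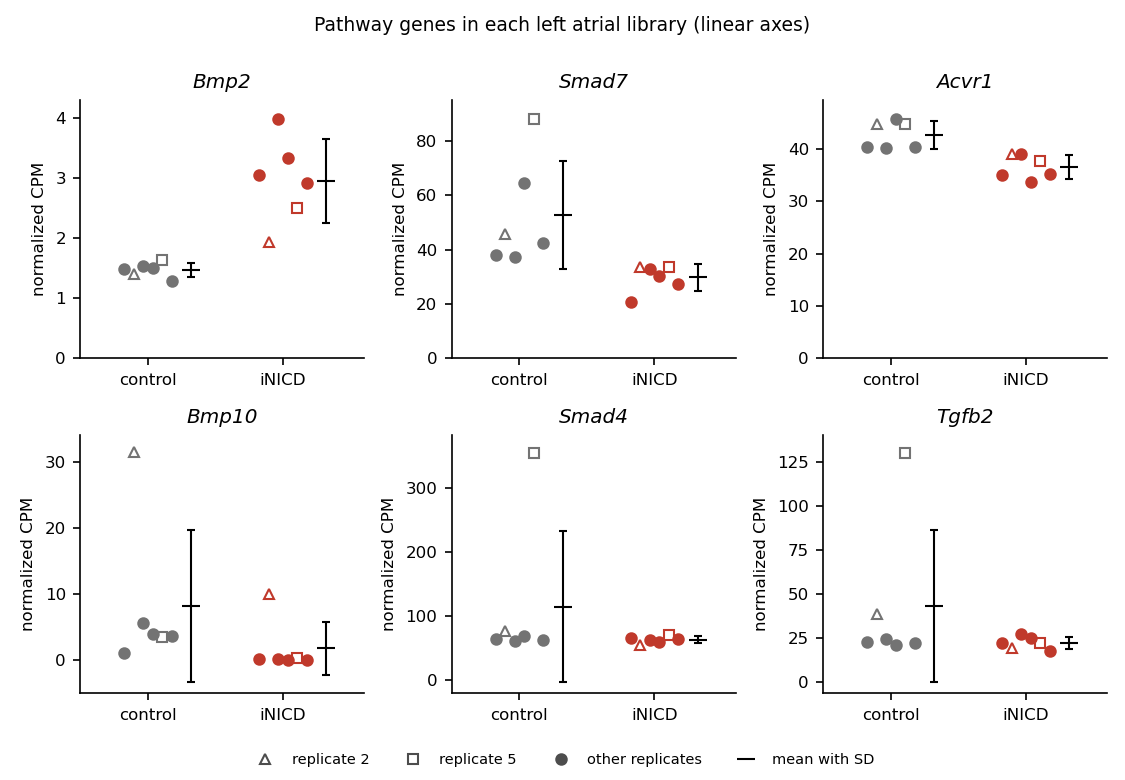
Normalized CPM (y axes, linear) of *Bmp2*, *Smad7*, *Acvr1*, *Bmp10*, *Smad4* and *Tgfb2* in each control (grey) and iNICD (red) LA library, with the mean and SD at the right of each group. The groups are separate for the 3 upper genes, while replicate 2 (triangles) stands high for *Bmp10* in both groups and control replicate 5 (open square) reaches 354 for *Smad4* and 129.7 for *Tgfb2*.

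The remaining BMP ligands did not pass the threshold. *Bmp5*, on chromosome 9 from 75775364 to 75900310, had the second lowest p-value of the ligands. Its level was 4.21, 6.81 and 10.7 normalized CPM (minimum, median and maximum) in control and 8.20, 10.045 and 13.1 in iNICD LA. The groups overlapped, with means of 7.03 ± 2.16 and 10.2 ± 1.89 (SD over 6 libraries each) and a log2 fold change of 0.53 ± 0.20 (SE, adjusted p = 0.168 in edgeR). Of its annotated exon bases 46.7% are shared with *Gm26903* on the opposite strand, for which 8 counts were recorded in all 12 libraries. *Bmp4* and *Bmp3*, at mean levels of 11.6 and 4.25 normalized CPM in controls, had log2 fold changes of 0.02 and 0.04. *Bmp6* had one of -0.29 and *Bmp7*, a ligand at the edge of detection, one of -0.59 ± 0.31 (SE, adjusted p = 0.347 in edgeR). All 5 tested GDF genes, *Gdf2*, *Gdf6*, *Gdf7*, *Gdf10* and *Gdf11*, had control means at or below 2.20 normalized CPM and log2 fold changes from -0.37 to 0.47, none of them called.

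None of the 3 TGF-beta ligands was called by edgeR, and 1, *Tgfb2*, had an unadjusted p under 0.05. *Tgfb3*, on chromosome 12 from 86056745 to 86079041, had a minimum of 71.5, a median of 77.0 and a maximum of 152 normalized CPM in control and of 80.6, 88.2 and 109 in iNICD libraries. Its highest value came from control replicate 5, and 5 of the 6 controls lay at or below 90.0. The log2 fold change was 0.03 ± 0.18 (SE, adjusted p = 0.951 in edgeR), and without that library it was 0.24 (adjusted p = 0.168 in edgeR). *Tgfb2*, named here after its values were seen, showed the same library at 129.7 normalized CPM, with 20.7 to 38.5 in the other controls and 17.5 to 26.9 in iNICD mice. Its log2 fold change went from -0.96 ± 0.43 (SE, adjusted p = 0.278 in edgeR) to -0.21 (adjusted p = 0.540 in edgeR) when control replicate 5 was left out. *Tgfb1* had means of 26.2 ± 6.04 and 24.2 ± 4.80 normalized CPM (SD over 6 libraries each).

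The activin subunit genes followed that library as well. *Inhba*, which encodes the subunit of activin A and was named after its values were seen, stood at 64.6 normalized CPM in control replicate 5, at 4.16 to 13.9 in the other controls and at 5.37 to 11.01 in iNICD mice. Its log2 fold change was -1.02 ± 0.63 (SE, adjusted p = 0.433 in edgeR) with all libraries and 0.21 (adjusted p = 0.776 in edgeR) without it. *Inhbb*, the activin B subunit, moved likewise from -0.40 to 0.36.

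None of the 11 tested receptor and co-receptor genes was called by edgeR, and 1, *Acvr1*, had an unadjusted p under 0.05. *Acvr1*, which encodes a BMP type I receptor, lies on chromosome 2 from 58388644 to 58567157 on the reverse strand. It stood at 40.2, 42.6 and 45.7 normalized CPM (minimum, median and maximum) in control and at 33.7, 36.5 and 39.1 in iNICD LA. All iNICD libraries were below all controls, at means of 36.6 ± 2.31 and 42.7 ± 2.63 (SD over 6 libraries each). The log2 fold change of -0.22 ± 0.06 (SE) did not pass after adjustment over all genes (adjusted p = 0.0669 in edgeR), whereas DESeq2 called it (adjusted p = 0.0104). Its RefSeq promoter, chr2:58566779-58567078 of GRCm38.p6 on the reverse strand, is given as that of the receptor whose groups were separate, with motif matches in capitals.
Acvr1: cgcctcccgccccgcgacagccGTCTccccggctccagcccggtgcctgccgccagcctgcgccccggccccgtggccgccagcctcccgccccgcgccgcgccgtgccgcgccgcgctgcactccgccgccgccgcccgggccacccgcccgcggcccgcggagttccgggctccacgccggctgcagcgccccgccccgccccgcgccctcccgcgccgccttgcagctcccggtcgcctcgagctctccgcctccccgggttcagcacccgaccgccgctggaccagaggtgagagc
The single match was a SMAD box, and the RBPJ core was not among its letters.

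For the other type I receptors, log2 fold changes ran from -0.23 for *Tgfbr1* to -0.01 for *Bmpr1a*. *Bmpr1a* had the smallest standard error of the 50 genes, with 134 to 149 normalized CPM in control and 137 to 149 in iNICD libraries, a log2 fold change of -0.01 ± 0.05 (SE). The endothelial receptor *Acvrl1* had 65.9 normalized CPM in control replicate 5 and 33.7 to 45.3 in the other controls. Type II receptors *Acvr2a*, *Bmpr2* and *Tgfbr2* had log2 fold changes of -0.03, 0.01 and -0.11, and *Acvr2b*, at 1.95 normalized CPM in controls, one of 0.37. *Tgfbr3*, the co-receptor betaglycan, was at 120.2 ± 18.7 in control and 111 ± 6.99 normalized CPM in iNICD LA (SD over 6 libraries each). *Tgfbr3l*, a relative of betaglycan, had a log2 fold change of 0.45 ± 0.21 (SE, adjusted p = 0.305 in edgeR). Its low level of 1.03 in control replicate 5 lay outside the 2.23 to 2.92 of the other controls and the 2.51 to 3.73 of iNICD libraries, and 52.2% of its exon bases are shared with *Gm49320* on the same strand.

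Among the 8 SMAD genes, all tested, *Smad7* was called. It encodes an inhibitory SMAD that is itself induced by TGF-beta and BMP signals, and lies on chromosome 18 from 75367529 to 75395935. Its minimum, median and maximum were 37.3, 44.1 and 87.9 normalized CPM in control and 20.9, 31.6 and 33.8 in iNICD LA. Every iNICD library lay below every control, although the controls were widely spread, with 64.5 in replicate 4 and 87.9 in replicate 5. The mean fell from 52.6 ± 19.9 to 29.8 ± 5.03 (SD over 6 libraries each), a log2 fold change of -0.82 ± 0.21 (SE, adjusted p = 0.0484 in edgeR). This call lay at the edge of the threshold: leaving out the libraries in turn, it was kept in 4 of 12 fits, those without control replicate 1, 3, 5 or 6, and was lost without control replicate 2 or 4 or any iNICD library (edgeR adjusted p from 0.0664 to 0.106). The direction was the same in all 12, with log2 fold changes from -0.90 to -0.61, the smallest being that without control replicate 5 (adjusted p = 0.0406 in edgeR). Its relative *Smad6*, the inhibitory SMAD of the BMP branch, had overlapping groups at 19.7 ± 6.998 and 15.6 ± 3.05 normalized CPM (SD over 6 libraries each), a log2 fold change of -0.34 (adjusted p = 0.459 in edgeR).

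For *Smad4*, the common SMAD, 1 library set the control mean. Control replicate 5 held 354 normalized CPM, the other controls 61.4 to 76.9 and the iNICD libraries 55.6 to 70.7. Its log2 fold change was accordingly -0.86 ± 0.42 (SE, adjusted p = 0.316 in edgeR) with that library and -0.08 (adjusted p = 0.610 in edgeR) without it. The receptor-regulated SMADs of the BMP branch, *Smad1*, *Smad5* and *Smad9*, had log2 fold changes of -0.36, 0.09 and -0.11, and those of the TGF-beta branch, *Smad2* and *Smad3*, of -0.13 and 0.27. *Smad1* came nearest to the threshold after *Smad7* (adjusted p = 0.181 in edgeR), with 23.0, 25.7 and 41.3 normalized CPM (minimum, median and maximum) in control and 19.6, 21.9 and 24.0 in iNICD LA. The maximum was again control replicate 5, without which the log2 fold change was -0.21 (adjusted p = 0.155 in edgeR). For *Smad3* that library was the lowest control, at 45.4 where the others had 60.1 to 72.3 and iNICD mice 63.3 to 82.6.

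Of the 3 tested antagonists and 4 latent TGF-beta binding proteins edgeR called 0, and 0 had an unadjusted p under 0.05. *Fstl3*, a secreted binder of activin, ranged from 15.2 to 140.3 normalized CPM in control and from 31.1 to 70.2 in iNICD libraries. Its log2 fold change was -0.23 ± 0.49 (SE) and became 0.35 without control replicate 5, and 47.3% of its exon bases are shared with *Prss57* on the opposite strand. *Fst*, which encodes follistatin, likewise moved from -0.58 ± 0.50 (SE) to 0.04, with 6.93 in that control and 1.20 to 2.33 in the others. *Chrd*, the BMP antagonist chordin, had 9.82 ± 1.64 and 9.52 ± 2.92 normalized CPM (SD over 6 libraries each). *Ltbp4* was at 947 ± 96.1 in control and 855 ± 56.2 in iNICD LA, a log2 fold change of -0.15 ± 0.08 (SE, adjusted p = 0.346 in edgeR). *Ltbp1* and *Ltbp3* had log2 fold changes of 0.00 and -0.01. *Ltbp2*, at 5.81 ± 4.80 and 4.65 ± 3.66, reached 14.9 in control replicate 5 and 11.9 in iNICD replicate 4.

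A further 7 tested genes matched the name rule and were placed outside these roles. edgeR called 0 of them, and 0 had an unadjusted p under 0.05. *Fstl1* ranged from 174 to 643 normalized CPM in control and from 171 to 341 in iNICD LA, with a log2 fold change of -0.24 ± 0.33 (SE) and 0.08 without control replicate 5. *Tgfb1i1*, a focal adhesion protein induced by TGF-beta, had one of -0.75 ± 0.35 (SE, adjusted p = 0.290 in edgeR) and of -0.37 without that library. *Fstl4* had one of -0.37 ± 0.18 (SE, adjusted p = 0.305 in edgeR). *Bmp1*, a procollagen protease, *Bmp2k*, a kinase, *Tgfbi*, a matrix protein, and *Tgfbrap1*, a receptor-associated protein, lay between -0.05 and 0.03.

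**Figure D4:**
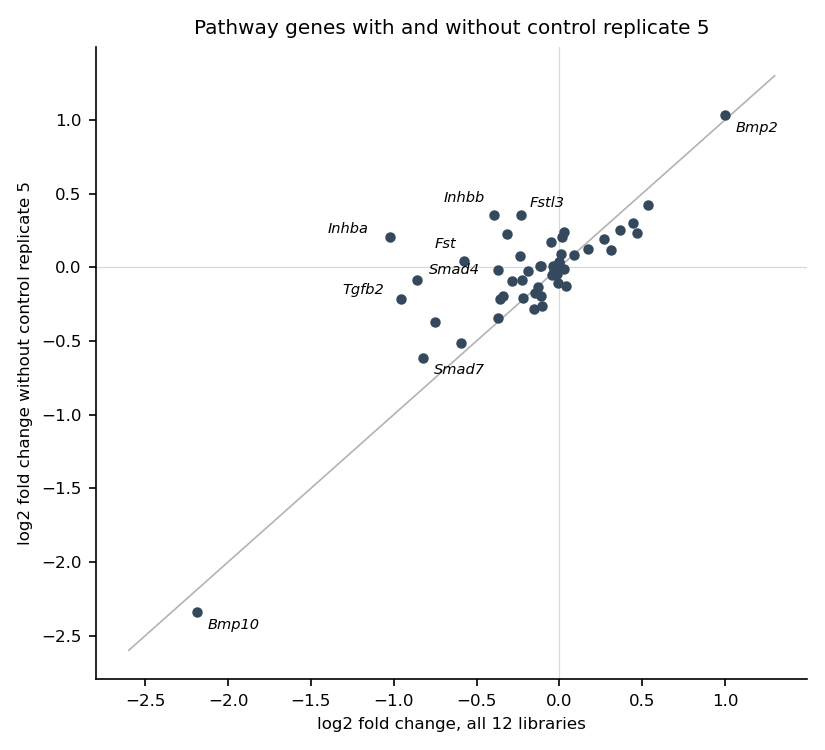
Log2 fold change of the 50 tested pathway genes without control replicate 5 (y axis) against that with all 12 libraries (x axis), where the diagonal marks equal values. *Bmp2* and *Bmp10* stay near the diagonal, while *Inhba* goes from -1.02 to 0.21, *Tgfb2* from -0.96 to -0.21 and *Smad4* from -0.86 to -0.08.

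Leaving out control replicate 5 moved the fold change by more than 1.5 times for 6 genes, *Fst*, *Fstl3*, *Inhba*, *Inhbb*, *Smad4* and *Tgfb2*. It was the highest control for 26 of the 50 genes, and its male sex was shared with control replicate 6. A test of the interaction of sex and genotype called 0 of all 13541 genes and so none of the 50 (lowest edgeR adjusted p = 0.916). Of the 50, 4 had an unadjusted p under 0.05, as had 501 of all genes. With only 2 male controls, 1 of them control replicate 5, the test cannot show that the sexes respond alike.

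To place these genes, 67 others of the pathway were taken from lists of ligands, co-receptors, modulators, latency and activation genes, intracellular regulators and target genes. Of these 57 were tested, 1 was higher and 4 were lower, a share of 8.77% beside 4.12% for all genes. The lists were drawn up with earlier results of these data known, so this share is no independent test of the pathway. Control and iNICD libraries were separate for 5 of the 57, beside 3.83% of all genes, and the median log2 fold change was -0.10. Without control replicate 5, where 5.90% of all genes were called, there were 2 higher and 4 lower and a median of -0.06, the called genes being *Bambi*, *Ctgf*, *Id3*, *Inha*, *Kcp* and *Rgma*.

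Of the 12 targets tested, 3 were called lower with all 12 libraries, beside 1.34% of all genes called lower. Without control replicate 5 there were 2, where 5.90% of all genes were called in either direction. With all 12 libraries, 7 of the targets had an unadjusted p under 0.05, and 48.7% of all genes had a log2 fold change above 0. Of the targets, 11 had a log2 fold change below 0 with control replicate 5 or without it. Their median was -0.40, and -0.35 without it. *Id1* and *Id3* encode helix-loop-helix inhibitors of differentiation and are classic targets of BMP signals. *Id1* stood at 12.9, 20.7 and 32.5 normalized CPM (minimum, median and maximum) in control and at 7.11, 11.8 and 17.3 in iNICD LA. The groups overlapped through control replicate 1 at 12.9, and the mean fell from 22.9 ± 7.47 to 11.8 ± 3.42 (SD over 6 libraries each), a log2 fold change of -0.95 ± 0.24 (SE, adjusted p = 0.0411 in edgeR). Without control replicate 5 it was -0.85 and no longer passed (adjusted p = 0.0579 in edgeR). *Id3* stood at 40.2, 47.0 and 55.9 normalized CPM in control and at 31.2, 34.7 and 42.2 in iNICD LA. Only iNICD replicate 2, at 42.2, overlapped the controls, and the log2 fold change was -0.42 ± 0.10 (SE, adjusted p = 0.0271 in edgeR), or -0.40 (adjusted p = 0.0355 in edgeR) without control replicate 5. Over the 12 fits that each left out a library, *Id1* was called in 2 and *Id3* in 5, at log2 fold changes of -1.09 to -0.83 and of -0.47 to -0.37. *Id2* and *Id4* had log2 fold changes of -0.15 and -0.16 and were not called.

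The RefSeq promoter of *Id3*, a called gene of the target list, spans chr4:136143572-136143871 of GRCm38.p6 on the forward strand and is shown with SMAD boxes in capitals.
Id3: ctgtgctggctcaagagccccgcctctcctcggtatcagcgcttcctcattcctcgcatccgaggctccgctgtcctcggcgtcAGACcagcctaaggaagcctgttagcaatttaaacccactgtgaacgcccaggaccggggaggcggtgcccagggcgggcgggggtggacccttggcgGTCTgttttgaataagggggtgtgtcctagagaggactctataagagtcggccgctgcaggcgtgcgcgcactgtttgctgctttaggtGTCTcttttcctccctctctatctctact
It held 3 SMAD boxes and neither of the other motifs.

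*Ctgf*, a matricellular gene induced by TGF-beta, had its highest control value, 4841 normalized CPM, in replicate 5, and its groups did not overlap, with controls at or above 929.5 and iNICD libraries at or below 783. Its log2 fold change was -2.49 ± 0.48 (SE, adjusted p = 0.0107 in edgeR), and -1.97 (adjusted p = 0.00721 in edgeR) without control replicate 5. The matrix targets *Col1a1*, *Fn1* and *Postn* had log2 fold changes of 0.20, -0.30 and -0.74 and were not called.

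**Figure D5:**
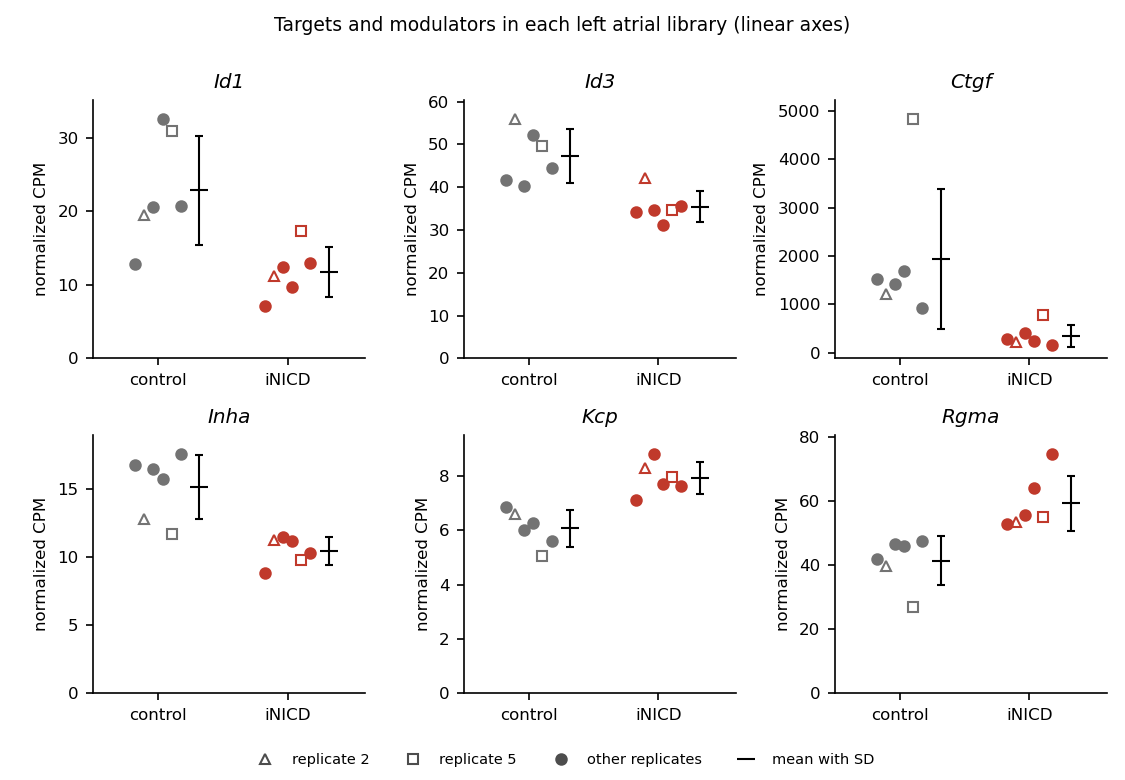
Normalized CPM (y axes, linear) of *Id1*, *Id3*, *Ctgf*, *Inha*, *Kcp* and *Rgma* in each control (grey) and iNICD (red) LA library, with the mean and SD at the right of each group. *Id1* falls from a mean of 22.9 to 11.8, and for *Inha*, *Ctgf*, *Kcp* and *Rgma* the groups are separate.

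Outside the targets, *Inha*, the inhibin alpha subunit, which opposes activin, fell from 15.2 ± 2.37 to 10.5 ± 1.05 normalized CPM (SD over 6 libraries each). Its levels were 11.7, 16.1 and 17.6 (minimum, median and maximum) in control and 8.81, 10.7 and 11.5 in iNICD LA, without overlap, and the log2 fold change was -0.54 ± 0.11 (SE, adjusted p = 0.0178 in edgeR). *Inha* was called in all 12 fits that left out 1 library, as was *Ctgf*. *Kcp*, which encodes a secreted enhancer of BMP signals related to chordin, rose from 6.07 ± 0.668 to 7.91 ± 0.583 (SD over 6 libraries each). All its iNICD libraries, 7.11 to 8.80, lay above the controls, 5.05 to 6.87, and the log2 fold change was 0.38 ± 0.10 (SE, adjusted p = 0.0495 in edgeR). The call was kept without control replicate 5 (adjusted p = 0.0492 in edgeR) and lost when any of the other 11 libraries was left out. The BMP co-receptor *Rgma* had separate groups as well, at 26.9 to 47.5 in control and 53.0 to 74.8 in iNICD libraries, a log2 fold change of 0.52 ± 0.13 (SE, adjusted p = 0.0519 in edgeR) and of 0.42 (adjusted p = 0.0212 in edgeR) without control replicate 5. Its relative *Rgmb* had one of 0.33 (adjusted p = 0.146 in edgeR). *Bambi*, a decoy receptor for the family that was named after its values were seen, had one of -0.52 ± 0.19 (SE, adjusted p = 0.156 in edgeR), and of -0.64 (adjusted p = 0.0207 in edgeR) without that library, where it had its lowest control value of 13.8.

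edgeR called 0 of 11 latency and activation genes and 0 of 18 intracellular regulators, of which 1 and 2 had an unadjusted p under 0.05. *Thbs1*, an activator of latent TGF-beta, was at 484 normalized CPM in control replicate 5 and 6.02 to 47.5 in the other controls, and its log2 fold change went from -2.59 to -0.28 without it. *Itgav*, a subunit of the integrins that release TGF-beta, had one of -0.25 (adjusted p = 0.324 in edgeR). Among the regulators, *Skil* and *Tgif1*, which encode corepressors of SMADs, had the lowest p-values, with log2 fold changes of -0.39 and -0.34 (edgeR adjusted p = 0.224 and 0.278).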

How the data were processed

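RNA was measured in 12 whole LA, 6 iNICD and 6 control, and groups, replicate numbers and sexes were taken from the labels. The deposited table holds raw read counts per gene name from the authors, with no normalization and no pooling, from single-end 50-base reads of libraries depleted of ribosomal RNA. The processing notes of the submitters list cutadapt, STAR 2.4.2a, Subread featureCounts and edgeR on mm10. The methods of the study also describe a TopHat2 and HTSeq route, the table does not name its route, and whether strand was used in counting is not stated. Without strand, reads of overlapping genes cannot be told apart, and 18 of the 50 tested pathway genes share exon bases with another annotated gene, 4 of them over 10%. The deposited gene length in bases was used for levels per kb.

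Genes above 1 CPM in at least 6 libraries were tested. Counts were scaled by TMM and compared in edgeR 4.0.16 (R 4.3.3) by the two-sided quasi-likelihood test, p-values being adjusted over 13541 genes (Benjamini-Hochberg) at a threshold of 0.05. Tested on simulated counts for the comparison of iNICD with control over 13421 genes, the test recovered 78 of 97 genes changed 2-fold and 94 of 98 changed 4-fold, with 10 false calls. No pair of libraries in a group agreed within sampling noise. Alternatives were DESeq2 1.42.0, edgeR's exact test, other scalings and filters, sex, replicate blocks, each sex alone and each library left out. Positions are from GENCODE M21 on GRCm38 and promoters from RefSeq, GRCm38.p6. The named genes are the called ones, in each role the gene highest per kb and the 2 with the lowest p-values, the genes at the edge of the filter, and in each further list up to 4 called genes each way or else the 2 with the lowest p-values. Other genes are given with their fold change or range, as said where chosen after their values were seen. The members and lists were chosen with earlier results of these data known. Right atrial libraries were not analysed here, and a few genes of these lists are counted but not reported by name.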

Additional observations from a re-analysis of the deposited data

Results flagged for a closer look

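In each group of 6 libraries, the highest and the lowest value of every tested pathway gene were examined for a gap to the nearest other library that was large beside the group's range (Dixon's criterion). Of 100 groups examined 16 were picked out, where chance gives about 1 in 20, or 5, for independent and normally distributed values. These groups share the same 12 libraries, so 1 unusual library can be picked out for many genes, and the 5 is only a rough guide. Control replicate 5 accounted for 12 of the 16.

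In control replicate 5, 11 genes were far above the other controls. These were *Smad4* at 354 normalized CPM, *Tgfbr2* at 206, *Tgfb3* at 152, *Tgfb2* at 129.7, *Acvrl1* at 65.9, *Inhba* at 64.6, *Smad1* at 41.3, *Bmp2k* at 27.3, *Inhbb* at 16.1, *Ltbp2* at 14.9 and *Fst* at 6.93. *Tgfbr3l* was far below them, at 1.03. Their other controls lay at 61.4 to 76.9 for *Smad4*, 126 to 145 for *Tgfbr2* and 71.5 to 90.0 for *Tgfb3*.

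*Bmp10* stood at 31.6 normalized CPM in control replicate 2, with 1.12 to 5.59 in the other controls, and at 10.1 in iNICD replicate 2, with 0.0757 to 0.418 in the other iNICD libraries. *Ltbp2* stood at 11.9 in iNICD replicate 4, with 1.94 to 4.47 in the others. *Ltbp4* stood at 965 in iNICD replicate 3, with 814 to 857 in the others. In edgeR's test of the interaction of sex and genotype, 0 pathway genes and 0 of all 13541 genes passed after adjustment. Of the pathway genes 4 had an unadjusted p under 0.05.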

How the results depend on the processing

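The call of *Bmp2* held in every alternative run except in either sex alone, where 0 pathway genes were higher and 0 were lower, and the number higher was 1 in each of the fits that left out a library. The number lower was 1 as reported and 0 to 1 when a library was left out. The 1 was *Bmp10*, and *Smad7* was not called, without iNICD replicate 2 (*Smad7* edgeR adjusted p = 0.0732) and without both libraries numbered 2 (0.0970). It was 2 with DESeq2 (*Acvr1*, *Smad7*), which called 7.82% of all genes against 4.12%, and 2 with a replicate block under the numbers of the sample titles, under those of the descriptions, which exchange 2 controls, or under the title numbers without both libraries numbered 5 (*Bmp10*, *Smad7*). With the block *Bmp10* had a log2 fold change of -3.38 (edgeR adjusted p = 0.0164). The deviations of same-numbered libraries from their group means correlated at over 0.1 in only 4 of 6 pairs under either numbering, with -0.11 and -0.15 for title numbers 3 and 4. Pairing was taken to require this of every pair, so the number was not taken to pair the mice. With the block 468 genes of all were called under the title numbers and 421 under the description numbers, beside 558 without it, and 5 and 4 of the 12 libraries correlated best with the library of their own number. The males comparison had 2 controls and called 8 genes of all.

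Of the further pathway genes, 1 was higher as reported, 2 with DESeq2 or RLE scaling, 0 with upper quartile scaling, without a filter, with filterByExpr, with the description block, in females, in males or without both libraries numbered 2, and 0 to 2 with a library left out. The number lower was 4, with 5 in edgeR's exact test, 3 with either block, 3 without both libraries numbered 2, 1 in females, 0 in males and 2 to 4 with a library left out. *Inha* was not called with the block of title numbers (edgeR adjusted p = 0.0506) or of description numbers (edgeR adjusted p = 0.0781), and *Id1* was not called without both libraries numbered 2 (edgeR adjusted p = 0.108).

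The fold changes of some uncalled genes turned direction. *Tgfb3* was -0.011 with sex as a covariate, -0.21 in males and -0.028 to 0.24 with a library left out. *Bmpr1a* was 0.013 without both libraries numbered 5 with the block and -0.024 to 0.0064 with a library left out. *Fstl3* was 0.20 with the title block, 0.25 with the description block, 0.035 in females, 0.0066 without both numbered 2, 0.45 without both numbered 5 with the block, and -0.42 to 0.35 with a library left out. *Fstl1* was 0.071 in females, 0.15 without both numbered 5 with the block and -0.37 to 0.076 with a library left out. *Inhba* was 0.32 in females, 0.32 without both numbered 5 with the block and -1.22 to 0.21 with a library left out. *Ltbp2* was 0.022 without both numbered 5 with the block and -0.86 to 0.22 with a library left out, and *Fst* was -0.77 to 0.043. The cause was not tested. Both alternatives without the libraries numbered 2 or 5 were chosen after seeing the data. DESeq2 gave no p for *Bmp10* or *Smad4*, and *Bmp2*, with 28 to 109 counts a library, is limited by depth.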
